A study of Mus musculus with 2 samples.

Results

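Thrombospondins and other matricellular proteins are secreted into the extracellular matrix, where they signal to cells more than they build the matrix. The 9 genes described here are Thbs1, Thbs2, Thbs3, Cd47, Spp1, Postn, Tnc, Sparc and Sparcl1, out of 31053 genes listed in the files. They were selected on results from these same 2 libraries, so their levels and ratios are given as a description and support nothing further. Thrombospondin-1 can bind latent TGF-beta and release the active cytokine, and it also binds the surface receptor CD47. Osteopontin (Spp1), periostin (Postn) and tenascin-C (Tnc) bind integrins and are known from wound repair and fibrosis. SPARC and its relative SPARC-like 1 (Sparcl1, also called hevin) bind collagen and influence how its fibres assemble. CD47 is the one member that is a membrane receptor, and through SIRP-alpha it also restrains phagocytosis.

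The data are 2 droplet single-cell RNA libraries (10x Chromium V3) of lung from C57BL/6 mice, both labelled with acute lung injury. One library is labelled wild type (WT) and the other p47phox-KI (KI), and p47phox is the organizer subunit of the phagocyte NADPH oxidase. The labels describe digestion with collagenase, lysis of erythrocytes, a viability dye and a sort with a CD45.2 antibody. They do not state the sort gate, the agent of injury, the nature of the knock-in allele, the number of animals pooled, or their age and sex. Because each group is 1 library, no test between groups is possible. Every bracketed interval below is a 95% interval for counting error only and holds no variation between animals or between cells.

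The WT library held 43376713 UMIs (unique molecular identifiers, 1 per counted transcript) in 10473 barcodes, and the KI library held 43445797 in 9120. Filters left 7735 WT and 6636 KI cells with a median of 3307 and 3774.5 UMIs. The libraries shared 30 barcode sequences, 14 of them among kept cells. A haemoglobin UMI was seen in 1.62% of WT and 17.2% of KI barcodes. Among leukocyte-like cells, 2 of 236 in WT and 71 of 125 in KI carried a UMI of a Y-linked gene, against 1 of 7499 and 16 of 6511 of the other cells. The labels give no sex, and the part of this split in the ratios below was not tested. UMIs of Ncf1, the gene of p47phox, marked 50 of 96 neutrophil-like cells in WT and 5 of 11 in KI, and a tag from the 3′ end does not check a knock-in allele. Cell types were named from fixed marker genes and carry the suffix -like, and the 9 genes were kept out of the choice of clustering genes. The unnamed share was 8.42% in WT against 12.8% in KI.

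The named stromal cells were 904 WT and 612 KI alveolar fibroblast-like, 339 and 364 adventitial fibroblast-like, 358 and 387 pericyte-like, and 115 and 120 smooth muscle-like cells. A small Hhip stromal-like cluster held 59 WT and 48 KI cells. Levels are in CPM, a gene's UMIs divided by the UMIs of all cells of that type in 1 library and scaled to 1e6. Ratios are log2 of KI over WT CPM, and were formed where a cell type had at least 50 cells in each library and the gene at least 20 UMIs over both. A level more than 20 times below that gene's highest among the compared types, in both libraries, was not compared, because free RNA in droplets can give such levels. This left 54 ratios, of which 13 lay past 0.5 in either direction. Both counts include ratios of alveolar and adventitial fibroblast-like cells combined, which use the cells of those 2 types again. Of all genes measured in alveolar fibroblast-like cells, 16.8% were past 0.5 upward and 9.10% downward, and other stromal types are given below.

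Pericyte-like cells held most UMIs of Spp1 and Postn, and Tnc is the member with compared ratios past 0.5 in both directions, so the start-proximal DNA of these 3 genes is shown. The table lists 2 transcript starts for each of the 3, and 1 start of each is printed. Each sequence is the 250 bases before a RefSeq transcript start (build GRCm38.p6), written 5′ to 3′ on the gene's strand. Capitals mark matches, on either strand, to any of 6 motifs, and no match overlapped another. The letters searched for a TATA box were TATAAA. Those for the factor Sp1 were GGGCGG, and those for AP-1 dimers were TGANTCA. Those for RBPJ, the factor of Notch signalling, were TGGGAA. Those for TEAD factors of the Hippo pathway were GGAATG, and those for RUNX factors were TGTGGT.
Spp1, chr5:104434861-104435110, plus strand: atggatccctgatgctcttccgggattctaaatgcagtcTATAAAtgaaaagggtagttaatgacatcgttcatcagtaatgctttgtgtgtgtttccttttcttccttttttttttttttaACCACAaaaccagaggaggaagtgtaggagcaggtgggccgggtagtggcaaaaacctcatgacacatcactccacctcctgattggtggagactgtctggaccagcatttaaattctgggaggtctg
Postn, chr3:54360857-54361106, plus strand: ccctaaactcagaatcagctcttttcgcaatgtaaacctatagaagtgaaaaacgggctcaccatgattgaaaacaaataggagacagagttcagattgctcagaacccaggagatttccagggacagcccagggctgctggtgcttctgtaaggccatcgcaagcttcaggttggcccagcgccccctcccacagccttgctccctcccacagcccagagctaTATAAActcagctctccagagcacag
Tnc, chr4:64047016-64047265, minus strand: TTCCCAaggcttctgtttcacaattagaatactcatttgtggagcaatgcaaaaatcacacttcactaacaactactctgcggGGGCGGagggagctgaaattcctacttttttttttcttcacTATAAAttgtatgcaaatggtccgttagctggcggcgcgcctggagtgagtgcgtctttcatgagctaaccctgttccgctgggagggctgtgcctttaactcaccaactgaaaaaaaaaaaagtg
All 3 printed windows hold TATAAA, which 12.4% of the 32851 promoters in the table hold in the same window. Since 1 of 2 starts was printed for each gene, no excess over that share is read from this. The windows of the other Spp1 and Postn starts hold no match to any of the motifs, and that of the other Tnc start holds TATAAA. In Postn it begins 26 bases before the start, in Tnc 126 bases and in Spp1 211 bases before it. The Spp1 window also holds the RUNX letters on the opposite strand 128 bases before the start, found in 14.0% of promoters. The Tnc window holds the Sp1 letters (32.7% of promoters) and, on the opposite strand, the RBPJ letters (21.6%). Neither the AP-1 letters (6.75%) nor the TEAD letters (12.6%) occur in the printed windows, and none of the matches is evidence of binding. The table had entries for 7 of the 9 genes. Besides Thbs3, treated below, Thbs1, Tnc and Sparcl1 overlap noncoding genes on the opposite strand, and Spp1 overlaps 1 on its own strand, away from the 3′ end.

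**Figure D1:**
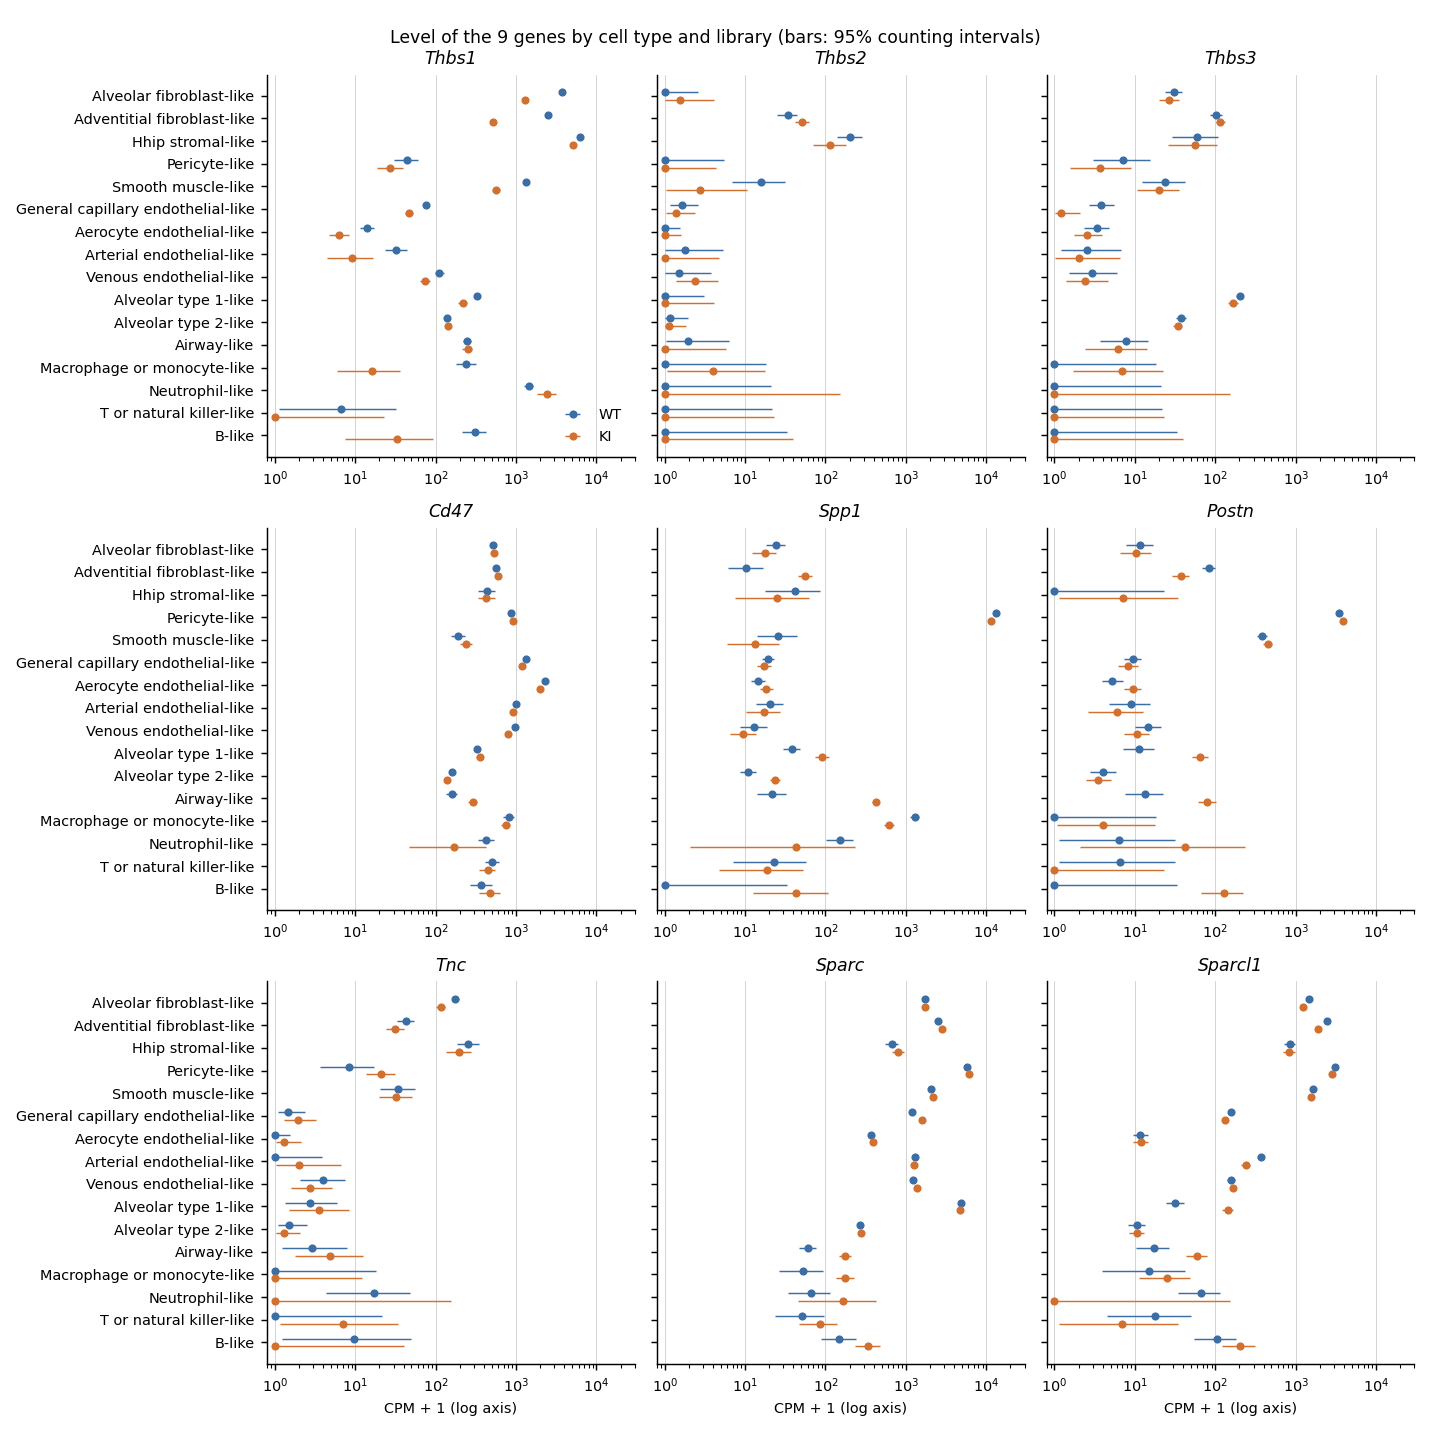
Level of each gene in every named cell type, as CPM + 1 on a log axis, with WT in blue and KI in orange; bars are 95% counting intervals. Spp1 and Postn stand out in pericyte-like cells, and Tnc in alveolar fibroblast-like and Hhip stromal-like cells. Thbs1 is high in alveolar and adventitial fibroblast-like, Hhip stromal-like and neutrophil-like cells, and Cd47 is highest in aerocyte endothelial-like cells.

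Thbs1 (chromosome 2, 118111876 to 118127133, plus strand) encodes thrombospondin-1, an inhibitor of angiogenesis and an activator of latent TGF-beta. Among the compared ratios of the 9 genes, those of Thbs1 lay furthest below 0, in fibroblast-like and smooth muscle-like cells. At levels that were not compared, Thbs1 also read lower in KI in other endothelial types. General capillary endothelial-like cells had 75.4 CPM in WT and 45.6 in KI, with a ratio of -0.73 [-0.96, -0.50]. Aerocyte endothelial-like cells had 88 and 34 UMIs, and arterial ones 40 and 8. The part of free RNA in these endothelial levels was not tested. Over all kept cells the Thbs1 ratio was -1.35 [-1.39, -1.31]. Alveolar fibroblast-like cells had 8460 Thbs1 UMIs in WT against 2323 in KI, or 3690.1 and 1278 CPM, with a log2 ratio of -1.53 [-1.60, -1.46]. Adventitial fibroblast-like cells had 2488 and 515 CPM, with a log2 ratio of -2.27 [-2.38, -2.17]. Smooth muscle-like cells had 1345 and 566 CPM, with a log2 ratio of -1.25 [-1.45, -1.05], which was -0.76 at a clustering resolution of 0.5. The WT level was above the KI level in each of these 3 types, by more than counting error. With each stromal cluster given the same weight in both libraries, the ratio was -1.08 in alveolar and -1.60 in adventitial fibroblast-like cells.

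The difference was seen both in how many cells carried Thbs1 and in how much they carried. With each cell thinned to 2000 UMIs, 65.6% of 486 WT and 43.5% of 375 KI alveolar fibroblast-like cells had a Thbs1 UMI (64.2% and 44.0% without thinning, at median depths of 2151.5 and 2449 UMIs). Of adventitial fibroblast-like cells the thinned shares were 62.8% of 274 and 27.3% of 308, and 69.3% and 38.7% without thinning. In aerocyte endothelial-like cells, a capillary type with little Thbs1, the thinned shares were 2.13% and 1.06%, at median depths of 3235 and 3698. Expression was uneven: the top decile of alveolar fibroblast-like cells held 63.7% of its UMIs in WT and 71.5% in KI. The median alveolar fibroblast-like cell had 7.66 Thbs1 UMIs per 10000 in WT and 0 in KI, and the top decile began at 108 and 34.3.

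Within the fibroblast-like cells the level of Thbs1 depended on the cluster, from 658 to 7555 CPM in WT. The alveolar cluster led by Saa3, Slc39a14 and Lcn2, genes of the acute-phase response, zinc import and iron binding, had 7555 CPM in WT and 3533 in KI. The alveolar cluster led by Nebl, Slc7a10 and Upk1b had 658 and 241 CPM. The other alveolar cluster, led by Lsmem1, Pde4c and Fam71a, had 2091 and 1557 CPM. Among adventitial clusters, the one led by Fgl2, Ccl2 and Pi16 had 7193 CPM in WT and 2753 in KI, that led by Pi16, Rbp4 and Adh7 had 857 and 439, and that led by Ptx3, Pi16 and Ccl11 had 1524 and 155. All 6 clusters had a lower level in KI, with log2 ratios from -0.43 to -3.30. The Saa3-led cluster had 311 WT and 127 KI cells and the Nebl-led cluster 510 and 432, so the 2 libraries mixed high-Thbs1 and low-Thbs1 clusters in different proportions.

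**Figure D2:**
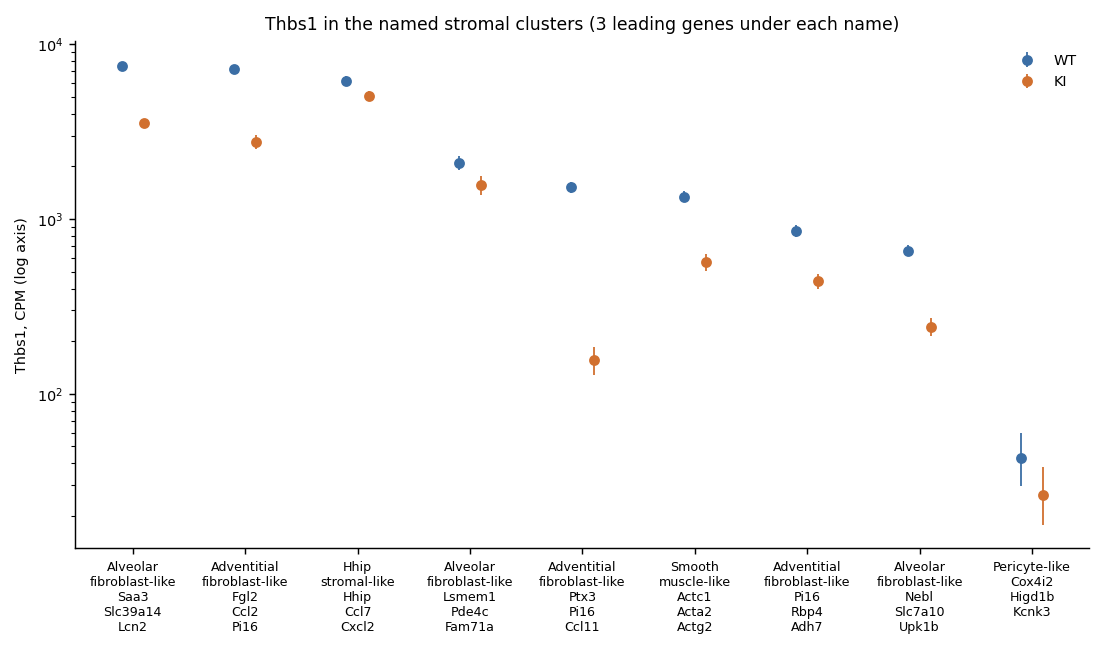
Thbs1 CPM (log axis) in the named stromal clusters of WT (blue) and KI (orange), ordered by the WT level, with 95% counting intervals. Each KI point lies below its WT point; the Hhip stromal-like pair is close (6182 and 5079 CPM) and the Ptx3-led adventitial pair is furthest apart.

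Hhip stromal-like cells, a cluster led by the hedgehog-binding gene Hhip and the chemokine genes Ccl7 and Cxcl2, had 6182 CPM of Thbs1 in WT and 5079 in KI. No ratio was read there because the KI library had 48 such cells. One KI cell held 261 of the 844 Thbs1 UMIs, and 5 cells held 73.3% of them, whereas 6 of the 59 WT cells held 43.7%. Neutrophil-like cells also carried Thbs1, at 1436 CPM in 96 WT cells and 2401 CPM in 11 KI cells. Pericyte-like cells were low, at 42.7 and 26.4 CPM. In venous endothelial-like cells the ratio was -0.59 [-0.87, -0.31], from 110 to 72.9 CPM, and in alveolar type 1-like cells -0.59 [-0.81, -0.37], from 324 to 215 CPM; in the deeper alveolar type 1-like cluster the levels were 358 and 264 CPM. With each library clustered alone the venous ratio was 0.83, and with doublets kept the alveolar type 1-like ratio was -1.47. Alveolar type 2-like cells (137 and 143 CPM) and airway-like cells (245 and 248 CPM) had ratios of 0.06 [-0.07, 0.20] and 0.02 [-0.26, 0.29]. These ratios did not hold across settings: the first was -0.41 with doublets kept and the second -1.13 without cell filters.

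Markers of other cells in the fibroblast-like sums were as follows. Summed neutrophil markers were 18.3 CPM in WT and 4.95 in KI alveolar fibroblast-like cells, and summed platelet markers were 13.5 and 9.90 CPM. The part of such RNA in the Thbs1 levels was not tested. Summed erythroid markers were 4.80 CPM in WT and 1753 in KI alveolar fibroblast-like cells, and 3.34 and 1755 in adventitial ones. The part of this erythroid RNA in the Thbs1 ratio was not tested. Summed alveolar fibroblast markers were 11385 and 10354 CPM in alveolar fibroblast-like cells, and summed adventitial markers 11450 and 14051 CPM in adventitial ones.

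Thbs2 (chromosome 17, 14665500 to 14694235, minus strand) encodes a thrombospondin that is close to thrombospondin-1 but does not activate latent TGF-beta. It was rare, with 134 UMIs in each library over all kept cells. Adventitial fibroblast-like cells held 49 of them in WT and 93 in KI, or 32.7 and 49.9 CPM, with a log2 ratio of 0.61 [0.09, 1.14]. This ratio did not hold across settings: it was 0.076 with doublets kept and -1.10 with each library clustered alone. The Ptx3-led adventitial cluster held 49 of those UMIs in WT and 74 in KI, or 101 and 93.3 CPM, and 15 KI UMIs came from 1 cell. Hhip stromal-like cells had 201 and 114 CPM, from 34 and 19 UMIs. In pericyte-like cells there were 0 UMIs in both libraries. A level of 3 counts, used here as the floor, would be 3.66 CPM in WT and 2.73 in KI. Alveolar fibroblast-like cells had 0 UMIs in WT and 1 in KI.

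Thbs3 (chromosome 3, 89215180 to 89226837, plus strand) belongs to the thrombospondins that assemble as pentamers, a branch that lacks the repeats with which thrombospondin-1 binds TGF-beta. Its 3′ end overlaps Mtx1, a protein-coding gene on the opposite strand, and whether the counting used strand is not given in the sources used here, so its counts are uncertain. Alveolar type 1-like cells, the thin epithelium of gas exchange, held 350 of its UMIs in WT against 199 in KI, or 200 and 166 CPM, with a ratio of -0.27 [-0.53, -0.01], which was 0.0072 at a mitochondrial limit of 5%. In the deeper of the 2 alveolar type 1-like clusters the levels were 217 and 220 CPM. Adventitial fibroblast-like cells had 102 and 115 CPM, with a ratio of 0.18 [-0.13, 0.49]. Alveolar type 2-like cells had 36.5 and 32.9 CPM, and alveolar fibroblast-like cells 29.7 and 25.9 CPM, with intervals that hold 0. Of all Thbs3 UMIs, alveolar type 1-like cells held 39.1% in WT and 25.6% in KI, alveolar type 2-like cells 24.2% and 28.9%, and adventitial fibroblast-like cells 16.98% and 27.5%.

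Cd47 (chromosome 16, 49800533 to 49915010, plus strand), a receptor of thrombospondin-1, was found in every named cell type. Its level was highest in the capillary endothelium: aerocyte endothelial-like cells had 2299 CPM in WT and 1960.5 in KI, and general capillary endothelial-like cells 1329 and 1185 CPM. Arterial and venous endothelial-like cells had 999 and 977 CPM in WT, and pericyte-like cells 872. Of thinned aerocyte endothelial-like cells 98.6% in WT and 96.3% in KI had a UMI. The ratio was slightly below 0 in all 4 endothelial types, at -0.17 [-0.21, -0.12] in general capillary, -0.23 [-0.26, -0.20] in aerocyte, -0.12 [-0.25, 0.0021] in arterial and -0.31 [-0.39, -0.22] in venous endothelial-like cells. Fibroblast-like cells, where Thbs1 was lower in KI, had Cd47 at 533 and 568 CPM, with a ratio of 0.09 [0.0042, 0.18]. In the 65 WT and 50 KI airway-like cells Cd47 was at 157 and 290 CPM, with a ratio of 0.88 [0.59, 1.18]. There the median of all genes was itself at 0.37, summed endothelial markers were 423 CPM in WT and 1478 in KI, and the ratio was -0.0096 at a clustering resolution of 0.5.

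Spp1 (chromosome 5, 104435118 to 104441050, plus strand) encodes osteopontin, an integrin-binding phosphoprotein of bone that also acts as a cytokine. Pericytes, the mural cells that wrap capillaries, were its main source in both libraries: pericyte-like cells held 10952 of 12804 UMIs in WT (85.5%) and 12666 of 15165 in KI (83.5%). The level there was 13344 CPM in WT and 11513 in KI, with a ratio of -0.21 [-0.25, -0.18], which was 0.059 at a mitochondrial limit of 5%. It was not carried by all pericyte-like cells. After thinning, 144 of 210 WT cells (68.6%) and 184 of 283 KI cells (65.0%) had a Spp1 UMI, and 66.5% and 65.9% without thinning, at median depths of 2171.5 and 2714 UMIs. At the lower quartile a cell had none, the median cell had 66.0 per 10000 UMIs in WT and 47.8 in KI, and the top decile began at 374 and 290.4. In venous endothelial-like cells, which lack the gene, the thinned shares were 2.46% and 1.36% at median depths of 4203 and 4789.5. Macrophage or monocyte-like cells, a known source of osteopontin, had 1285 CPM in 39 WT cells and 611 CPM in 43 KI cells.

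Postn (chromosome 3, 54361109 to 54391037, plus strand) encodes periostin, which takes part in collagen crosslinking and is a ligand of integrins. It shared the cell type of Spp1 but not its spread. Pericyte-like cells held 73.2% of its UMIs in WT and 75.1% in KI, at 3453 and 3899 CPM, with a ratio of 0.18 [0.11, 0.24]. Nearly every such cell carried it: 99.5% of thinned WT and 99.3% of thinned KI cells, against 0.899% and 0.423% of alveolar type 2-like cells, which were deeper at medians of 12907 and 14486 UMIs. The lowest decile of pericyte-like cells ended at 9.46 per 10000 UMIs in WT and 12.8 in KI, and the highest began at 58.3 and 67.5. Of the thinned cells with Spp1, 143 of 144 in WT and 184 of 184 in KI also had Postn, and Postn was also seen in 100% of WT and 98.0% of KI thinned cells without Spp1. Smooth muscle-like cells had 385 and 449 CPM, with a ratio of 0.22 [-0.05, 0.51].

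**Figure D3:**
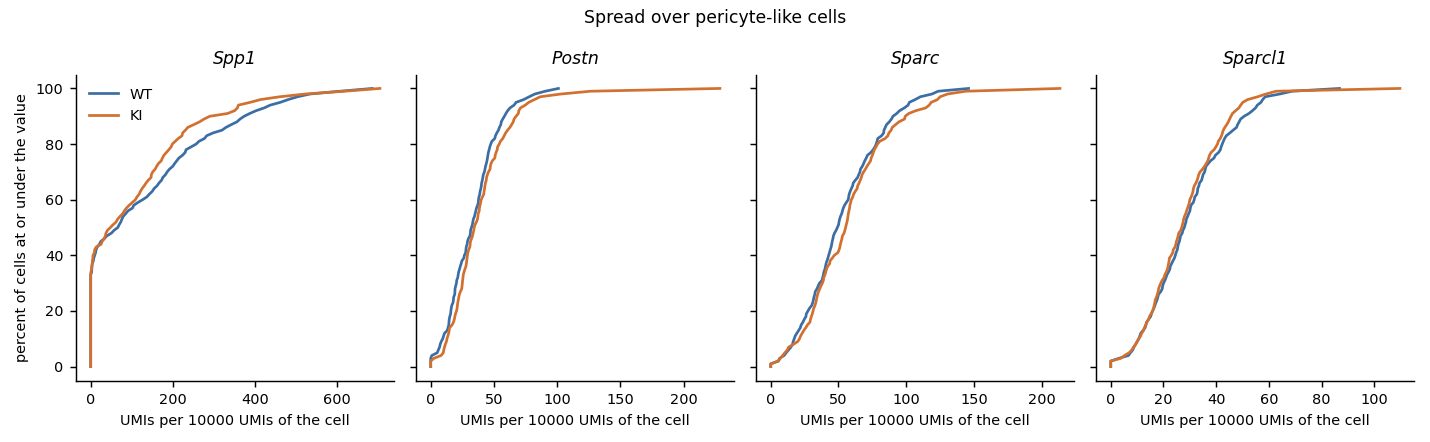
Cumulative share of pericyte-like cells (vertical, percent) at or under a given number of UMIs per 10000 UMIs of the cell (horizontal), in WT (blue) and KI (orange). The Spp1 curves start with many cells at 0, with medians of 66.0 and 47.8; the Postn, Sparc and Sparcl1 curves rise from few cells at 0.

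Tnc (chromosome 4, 63959785 to 64047015, minus strand) encodes tenascin-C, a large matrix protein that is low in most adult tissues and is made during development and after injury. Alveolar fibroblast-like cells held 398 Tnc UMIs in WT against 208 in KI, or 174 and 114 CPM, with a ratio of -0.60 [-0.85, -0.36]. With equal cluster weights the ratio was -0.29. The Saa3-led alveolar cluster, which was also high in Thbs1, had 317 and 230.4 CPM of Tnc, while the Nebl-led cluster had 52.2 and 62.2. The share of thinned cells with a UMI was 13.2% in WT and 14.7% in KI, (14.8% and 16.2% without thinning), and the top decile of cells held 88.9% and 81.7% of the UMIs. Among thinned alveolar fibroblast-like cells with Thbs1, 17.6% in WT and 20.9% in KI had Tnc, against 4.79% and 9.91% of cells without Thbs1. Hhip stromal-like cells had 254 and 193 CPM from 43 and 32 UMIs. Pericyte-like cells had 6 Tnc UMIs in WT against 22 in KI, or 7.31 and 19.997 CPM, with a ratio of 1.45 [0.11, 3.04] that rests on few counts. That WT level was more than 20 times below the alveolar fibroblast-like one, so the ratio was compared through its KI level alone. Adventitial fibroblast-like (41.4 and 30.6 CPM) and smooth muscle-like cells (33.3 and 31.4 CPM) had intervals that hold 0.

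Sparc (chromosome 11, 55394500 to 55423183, minus strand) encodes a calcium- and collagen-binding protein that many stromal and endothelial cells make. Pericyte-like cells had 5816 CPM in WT and 6140.1 in KI, with a ratio of 0.08 [0.02, 0.13], and every thinned pericyte-like cell had a UMI. Alveolar type 1-like cells were close behind at 4845 and 4723 CPM, with a ratio of -0.04 [-0.09, 0.01]. Alveolar and adventitial fibroblast-like cells had 1732 and 2519 CPM in WT, with ratios of 0.02 [-0.05, 0.09] and 0.16 [0.10, 0.22]. The ratio furthest from 0 was in general capillary endothelial-like cells, where Sparc was at 1185 CPM in WT and 1589 in KI, with a ratio of 0.42 [0.38, 0.47], which was 0.27 with the 9 genes allowed in the clustering. The thinned share there was 80.1% in WT and 86.6% in KI. Aerocyte endothelial-like cells, the other capillary type, had 367 and 385 CPM, with a ratio of 0.07 [-0.01, 0.15].

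Sparcl1 (chromosome 5, 104079111 to 104113733, minus strand) lies 321384 bases from Spp1 on the same chromosome, with 4 protein-coding genes between them. It was a gene of mural and fibroblast-like cells: pericyte-like cells had 3060 CPM in WT and 2856 in KI, adventitial fibroblast-like cells 2477 and 1921, smooth muscle-like cells 1659 and 1533, and alveolar fibroblast-like cells 1479 and 1225. The ratio was -0.10 [-0.18, -0.02] in pericyte-like, -0.37 [-0.43, -0.30] in adventitial and -0.27 [-0.35, -0.19] in alveolar fibroblast-like cells. The adventitial ratio was 0.30 with each library clustered alone. Endothelium split by type. Arterial endothelial-like cells had 366 and 237 CPM, with a ratio of -0.62 [-0.86, -0.40]. Of the 11 other settings, 6 gave a value for this ratio, from -0.72 to -0.53. General capillary and venous endothelial-like cells had 155 and 156 CPM in WT, and aerocyte endothelial-like cells had 10.7 in WT. In WT fibroblast-like cells Spp1 was at 17.7 CPM, far below its own level in pericyte-like cells, while Sparcl1 was at 1873 CPM there.

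**Figure D4:**
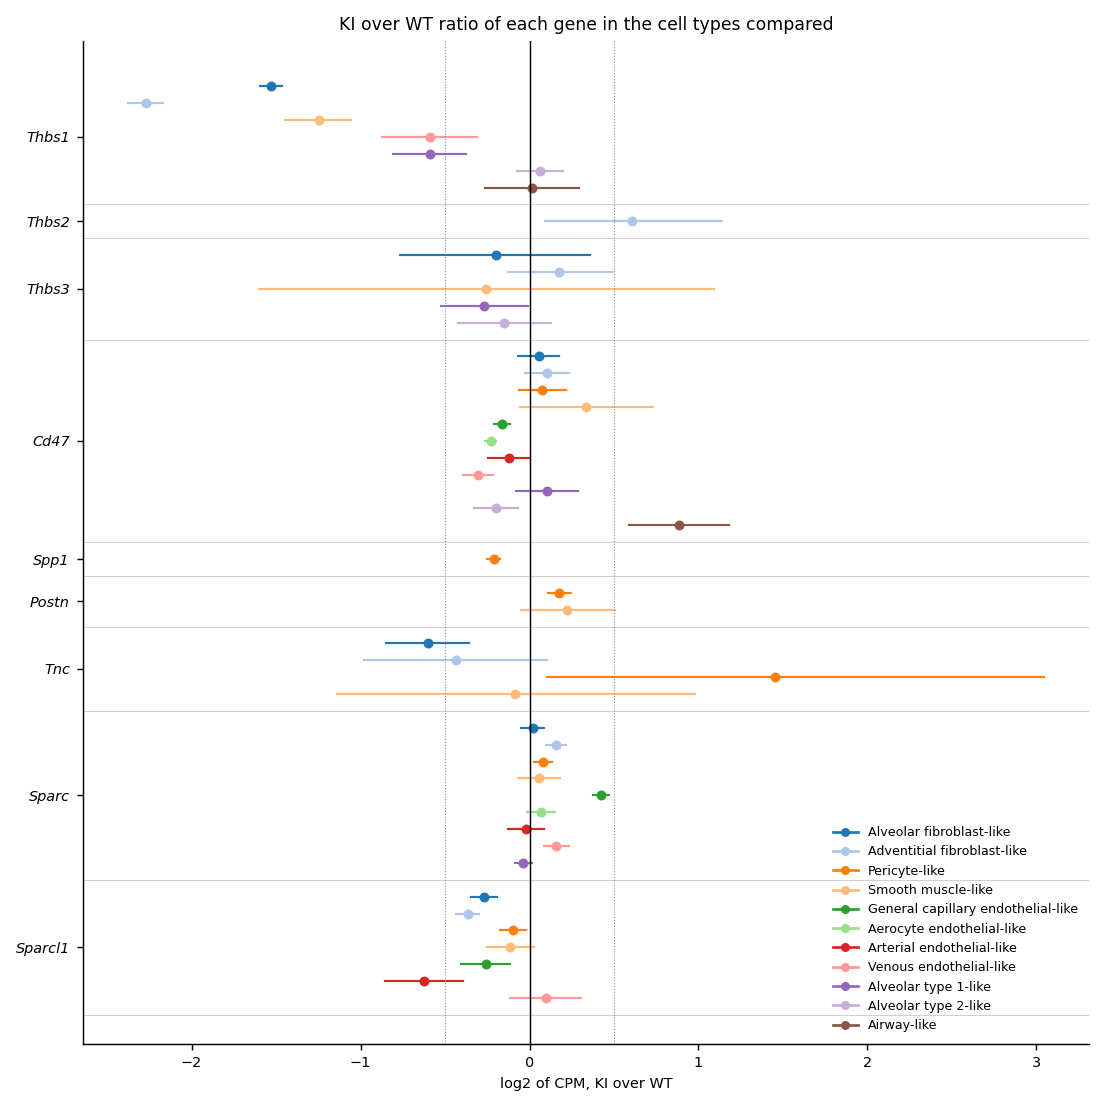
Log2 ratio of KI over WT CPM (horizontal) for each gene in each cell type compared, coloured by cell type, with 95% counting intervals and dotted lines at 0.5 and -0.5. The Thbs1 points of the fibroblast-like and smooth muscle-like cells lie furthest left, between -1.25 and -2.27, while most Sparc, Sparcl1 and Cd47 points lie within the dotted lines.

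In alveolar type 1-like and airway-like cells several stromal genes read higher in KI, but at levels that were not compared. Spp1, Postn and Sparcl1 were at 37.1, 10.3 and 30.8 CPM in WT alveolar type 1-like cells and at 90.2, 64.3 and 141 CPM in KI. In these cells the summed fibroblast markers were 113 CPM in WT and 639 in KI, with 7 of 7 detected in both, the pericyte markers 29.1 and 279 CPM, and the endothelial markers 560 and 1724 CPM. In the deeper alveolar type 1-like cluster, led by Ager, Igfbp2 and Aqp5, the 3 genes were at 16.8, 5.82 and 14.2 CPM in WT and at 11.4, 7.57 and 20.2 in KI. Airway-like cells had 20.9 and 418 CPM of Spp1, beside pericyte markers of 35.2 and 295 CPM. The part of stromal RNA in these levels was not tested.

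Counted over the genes with at least 20 UMIs, members past a log2 ratio of 0.5 were as follows, and nothing is read from these counts since the members were chosen with the ratios in view. In alveolar fibroblast-like cells 0 of 8 measured members were past it upward, where 16.8% of all 10327 genes were, and 2 (Thbs1 and Tnc) downward, where 9.10% were. In adventitial fibroblast-like cells 2 of 9 were higher (Thbs2, and Spp1 at a level that was not compared), beside 21.0% of all genes. Another 2 were lower (Thbs1, and Postn at a level that was not compared), beside 9.01%. In pericyte-like cells 1 of 7 was higher (Tnc), beside 13.4% of all genes, and 1 lower (Thbs1, at a level that was not compared), beside 10.4%. In smooth muscle-like cells 0 of 7 were higher, beside 19.1%, and 1 lower (Thbs1), beside 12.0%. The median ratio of the measured members was -0.23, 0.10, 0.07 and -0.09 in these 4 types, beside 0.05, 0.11, 0.01 and 0.07 for all genes.

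The other genes of the pathway, in 5 lists, were read in alveolar and adventitial fibroblast-like cells combined, where 18.3% of 11534 genes were past 0.5 upward and 7.36% downward, with a median of 0.09. The part of the erythroid RNA and of the cluster proportions given above in these values was not tested. Of 27 measured genes of other matricellular proteins and their families, 4 were past 0.5 upward and 5 downward, with a median of 0.12. The lower ones included 3 that, like Thbs1, encode secreted signalling proteins of the matrix. Cyr61, an integrin ligand of the CCN family, was at 1330 CPM in WT and 525 in KI, with a ratio of -1.34 [-1.42, -1.27]. Wisp2, of the same family, had a ratio of -1.41 [-1.70, -1.14], and Spon2, a secreted integrin ligand, -1.61 [-1.90, -1.32]. Tgfbi, a TGF-beta-induced relative of periostin, was higher in KI, at 30.4 and 71.5 CPM, with a ratio of 1.24 [0.91, 1.56].

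Of 29 measured receptors and partners of the 9 proteins, 2 were past 0.5 upward and 4 downward, with a median of -0.15. Sdc4, a heparan sulfate proteoglycan that binds thrombospondin-1, was at 1356 CPM in WT and 755 in KI, with a ratio of -0.85 [-0.91, -0.78]. Cd44, a receptor of hyaluronan and osteopontin, had a ratio of -0.71 [-0.86, -0.55], and Itga5, the fibronectin receptor chain, one of -0.78 [-1.06, -0.51]. Sdc1 was rare, at 6.86 and 11.7 CPM, with a ratio of 0.77 [0.03, 1.53]. Of the receptors of thrombospondin-1 and CD47, Cd36 (-0.18 [-0.54, 0.18]) and Sirpa (0.01 [-0.40, 0.43]) had intervals that hold 0; they were named after their values were seen.

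Of 26 genes listed for TGF-beta activation and response, 3 were past 0.5 upward and 4 downward, with a median of -0.07. Among the 26 is Ltbr, which encodes the lymphotoxin beta receptor and is not a TGF-beta gene. The response gene Pmepa1, which restrains TGF-beta signalling, was at 456 CPM in WT and 273 in KI, with a ratio of -0.74 [-0.86, -0.63], and the ligand Tgfb2 had a ratio of -0.80 [-1.10, -0.51]. Nrep was at 13.7 and 28.5 CPM, with a ratio of 1.06 [0.56, 1.56], and the cell-cycle inhibitor Cdkn2b had 5 and 15 UMIs, with a ratio of 1.63 [0.09, 3.44]. Members of this list thus lay on both sides of 0. Of 24 serum response and actin genes, 2 were past 0.5 upward and 6 downward, with a median of -0.09. Srf, the serum response factor, was at 38.0 and 16.3 CPM, with a ratio of -1.22 [-1.68, -0.78], and Tagln2 at 471 and 286 CPM, with a ratio of -0.72 [-0.83, -0.61]. Egr2 had a ratio of -0.75 [-1.13, -0.36] and the myosin light chain gene Myl9 one of 0.69 [0.34, 1.05].

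Of 20 fibrillar and basement membrane collagens, 7 were past 0.5 upward and 1 downward, with a median of 0.20. Col14a1, of a collagen that sits on fibril surfaces, was at 144 CPM in WT and 262 in KI, with a ratio of 0.87 [0.71, 1.02]. Col5a3 (0.90 [0.34, 1.48]) and Col4a4 (1.07 [0.37, 1.81]) were rarer. Col8a1 was the one past 0.5 downward, at 19.3 and 7.88 CPM, with a ratio of -1.29 [-1.96, -0.65]. Read in the separate types, 1 of 17 measured collagens was past 0.5 upward in alveolar fibroblast-like cells, beside 16.8% of all genes. In adventitial fibroblast-like cells 4 of 19 were, beside 21.0% of all genes. The combined cells were 904 alveolar and 339 adventitial in WT, and 612 and 364 in KI. Whether any list differs from other genes was not tested.

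**Figure D5:**
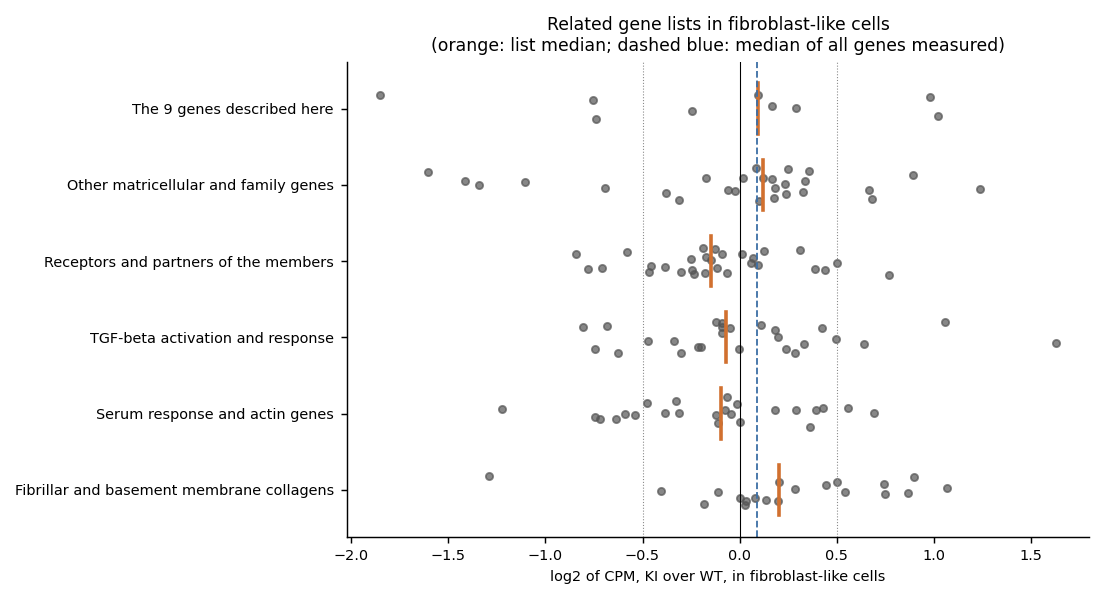
Log2 ratio of KI over WT CPM of each measured gene (grey points) of the 9 genes and the 5 related lists in alveolar and adventitial fibroblast-like cells together. Orange bars are list medians, from -0.15 to 0.20, and the dashed line is the median of all genes, 0.09.

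Ctgf, a CCN-family gene and TGF-beta target close to Cyr61, was named after its values were seen, because it differed in direction between the mural types. In pericyte-like cells it was at 327 CPM in WT and 899 in KI, with a ratio of 1.46 [1.26, 1.66], and 33.5% and 60.5% of cells had a UMI. In smooth muscle-like cells it was at 1424 and 453 CPM, with a ratio of -1.65 [-1.86, -1.44], with 51.3% and 40.0% of cells. Fibroblast-like cells had 594 and 367 CPM, with a ratio of -0.69 [-0.79, -0.60]. The difference between the mural types was not tested.

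The genes most like each member were found by Pearson correlation of log2(CPM + 1) over 22 points, the 11 cell types with at least 50 cells in each library, among 6934 genes. The points share libraries and depth, so the values are descriptive. Thbs1 was most like Nfil3 (r = 0.93), Sdc4 (0.91) and Mt2 (0.90). For Tnc the nearest were Rem1 (0.97), Rgs2 (0.96) and Plxdc2 (0.95). Spp1 was nearest to Clstn2 (0.95), Sp6 (0.95) and Adcy8 (0.94), and Postn to Ndufa4l2 (0.98), Kcnk3 (0.96) and Tusc5 (0.96). Thbs2 went with Cpxm2 (0.90), Lum (0.88) and Itgbl1 (0.88), and Thbs3 with Rnase4 (0.95), Fzd2 (0.92) and Echdc2 (0.91). Cd47 was nearest to Prickle2 (0.96), Arhgef3 (0.96) and Cep192 (0.95), Sparc to Tm9sf3 (0.95), Zfx (0.92) and Aggf1 (0.91), and Sparcl1 to Col5a1 (0.98), Lama4 (0.97) and Emp3 (0.96). Among the members themselves, the highest values were those of Tnc with Sparcl1 (0.78), Spp1 with Postn (0.77) and Thbs1 with Tnc (0.76), and the lowest that of Thbs1 with Cd47 (-0.59).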

How the data were processed

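Each library was deposited as a matrix of UMI counts without normalization; its entries are whole numbers. Cell Ranger 2.0, R 3.5.3 and Seurat 2.3.4 appear in the submitters' processing notes with the build mm10, and per the file headers the matrices came from software version 3.0.2. No barcode had fewer than 500 UMIs. The members and gene lists were chosen with earlier results of these data known.

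Barcodes with fewer than 200 genes (92 in WT, 142 in KI) or over 10% mitochondrial UMIs (2055 and 1921) were left out. Scrublet in scanpy 1.11.5 scored doublets in each library, its automatic threshold marked 0 in both, and the expected rate of 0.8% per 1000 barcodes was used in its place, which marked 877 and 665. Kept cells of both libraries were clustered together without integration (2000 variable genes per library without the 9 members, 30 components, 15 neighbours, Leiden resolution 1). Stromal clusters were divided again at resolution 0.6. A cluster took the class with the highest mean log2 fold of its markers. It stayed unnamed below 0.5, or when another class (in stromal clusters, a class outside the stroma) scored over 60% of the best, or when another class had more markers than its own among its 10 leading genes (at 100 CPM or more). Outside the stroma 1 own marker was also required there, and a tie left the cluster unnamed. Haemoglobin genes were left out of the leading genes; this, the 60% limit and the division of stromal cells were chosen after clusters had been seen. Counts were summed per library and cell type (Python 3.11.15, scipy 1.17.1 and numpy 2.4.6), with exact Poisson, Clopper-Pearson and conditional binomial intervals. For list counts 0.5 was added to each sum. The ratio and interval code was tested on simulated Poisson counts, which hold no variation between cells.

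The text names the 9 members, the 3 genes most like each (at 50 CPM or more in 1 sum), up to 4 genes per list furthest from 0 in fibroblast-like cells, and clusters by leading genes. Gene positions are from GENCODE vM21 (GRCm38, the assembly called mm10). Alternatives changed doublet removal, the mitochondrial limit, clustering, cluster weights, scaling and averaging. Leaving out the cell with the most UMIs was added after the data had been seen.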

Additional observations from a re-analysis of the deposited data

Results flagged for a closer look

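Tnc had ratios in opposite directions in 2 cell types. Its log2 ratio of KI over WT was -0.60 in alveolar fibroblast-like cells (398 and 208 UMIs) and 1.45 in pericyte-like cells (6 and 22 UMIs). Both counting intervals leave out 0, but the gene was chosen with its ratios in view. Under the other settings the alveolar fibroblast-like ratio ran from -0.76 to -0.26, and the pericyte-like one from 0.99 to 2.17. The share of thinned alveolar fibroblast-like cells with a Tnc UMI was 13.2% in WT and 14.7% in KI. The WT pericyte-like level, 7.31 CPM, was 23.7 times below the alveolar fibroblast-like one. That is past the limit used for free RNA, and the KI level is within it. The difference between the cell types was not tested, since each group is 1 library, and the pericyte-like value rests on cells with at most 5 UMIs each.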

How the results depend on the processing

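The 54 ratios were recomputed under 11 other settings. Of 564 recomputed values, 453 lay within the counting interval of the reported ratio, 106 lay outside it, and 5 changed the sign of a ratio past 0.5. A further 30 gave no value because fewer than 50 cells in a library carried the cell type's name under that setting; 15 of them were in arterial endothelial-like cells. Leaving out the cell with the most UMIs of the gene in each library kept all 54 within their intervals. Thbs1 was below 0 in alveolar and adventitial fibroblast-like cells under all 11 settings, and in smooth muscle-like cells under the 10 that gave a value (none at the 5% mitochondrial limit). In alveolar fibroblast-like cells its ratio was -1.68 without the gene and mitochondrial filters, -1.61 at clustering resolution 0.5, -1.02 with each library clustered alone and -1.08 with equal cluster weights. In adventitial fibroblast-like cells it was -2.01 with doublets kept, -2.06 at a mitochondrial limit of 5%, -1.96 without filters, -2.05 at resolution 0.5, -2.99 with libraries clustered alone, -2.16 as a mean of per-cell CPM, -1.60 with equal cluster weights and -2.39 when centred on the median of all genes. In smooth muscle-like cells it was -0.76 at resolution 0.5. In venous endothelial-like cells it reversed to 0.83 with libraries clustered alone. In alveolar type 1-like cells it ran from -1.47 (doublets kept) to -0.34 (equal weights), and in airway-like cells from -1.13 (no filters) to 0.02. Sparcl1 in adventitial fibroblast-like cells was 0.30 and Thbs3 there -0.34 with libraries clustered alone. Tnc there ran from -3.29 to 0.53 (the latter at the 5% limit) and was below 0 in 9 of 11 settings. Tnc in alveolar fibroblast-like cells was -0.26 with libraries clustered alone and -0.29 with equal weights. Thbs2 in adventitial fibroblast-like cells was 0.076 with doublets kept, 3.52 without filters and -1.10 with libraries clustered alone, where it was -0.89 over all fibroblast-like cells. Spp1 in pericyte-like cells was 0.059 at the 5% limit, -0.17 at resolution 0.5 and -0.26 as a per-cell mean, and Postn was 0.079 at the 5% limit. Cd47 was -0.27 in aerocyte endothelial-like cells when centred, and in airway-like cells -0.073 without filters and -0.0096 at resolution 0.5. Thbs3 in alveolar type 1-like cells was 0.0072 at the 5% limit and -0.0025 with equal weights. The cause of these changes was not tested. In all fibroblast-like cells, genes past 0.5 (2111 upward and 849 downward) became 4775 and 2800 when 1 UMI sufficed, and 498 and 189 at a limit of 1. At that limit 1 matricellular gene lay upward and 4 downward (4 and 5 at 0.5), 0 and 0 receptors (2 and 4), 2 and 0 TGF-beta genes (3 and 4), 0 and 1 serum response genes (2 and 6) and 1 and 1 collagens (7 and 1). With 1 UMI, 7 of 32 matricellular genes and 5 of 34 receptors lay upward, in place of 4 of 27 and 2 of 29. Of all 17470 genes with 1 UMI, 4775 lay upward. No paired analysis was possible because each group has 1 library. Thbs2 and the pericyte-like Tnc rest on so few UMIs that depth limits them.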
